A study of Mus musculus with 12 samples.

Results

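Of the 55487 genes in the gene count table of this study of the mouse retina, 9 are described here: P2ry12, Tmem119, Cx3cr1, Csf1r, C1qa, C1qb, C1qc, Aif1 and Siglech. They were chosen by name, as genes of resting (homeostatic) microglia and the chains of complement C1q, by matching the table's Ensembl identifiers to symbols. That rule uses no measured value, but the choice was made with earlier results of these data known. All 9 passed the filter on low counts and were tested. The RNA came from whole retina of wild-type (WT) C57BL/6J mice and of 5xFAD mice, whose strain label is Tg6799, at 1 month and at 6 months of age. Each of these 4 groups has 3 libraries. The 5xFAD line carries mutant human transgenes, among them the amyloid precursor protein, driven by a Thy1 promoter that is active mainly in neurons. The labels name no treatment, and do not say how many eyes or animals went into a library or that each library is a separate animal. The p-values below therefore measure the spread between these libraries, which may in part be technical.

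Microglia are the resident macrophages of the retina and brain. At rest they survey the tissue with fine processes, clear debris and take part in the pruning of synapses. They depend on signals through the receptor encoded by Csf1r, sense the neuronal chemokine fractalkine through CX3CR1 and extracellular nucleotides through P2RY12, and these surface genes are commonly lost when microglia become activated around amyloid. C1q, the recognition molecule that starts the classical complement pathway, is assembled from the A, B and C chains encoded by C1qa, C1qb and C1qc, and in the central nervous system microglia are its main source.

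The level of these genes in whole retina was low. Per library the 9 genes together drew between 219 and 612 counts out of totals of 10.9 to 19.6 M, and a single gene drew between 0 and 142. In counts per 1000000 on scaled library sizes (CPM), their summed level was 30.1, 30.4 and 39.0 in the WT libraries at 1 month and 20.2, 21.2 and 27.8 in the 5xFAD libraries at 1 month. At 6 months it was 31.2, 33.7 and 34.7 in WT and 31.7, 38.2 and 38.3 in 5xFAD. The 3 libraries of 5xFAD at 1 month thus held the lowest sums of the 12. The transcripts came from all cells of the tissue, and CPM is a share of each library. Fewer microglia, less RNA per microglial cell and a larger share of RNA from other cells therefore cannot be told apart.

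To compare one gene with another, levels were put per transcript length as transcripts per 1000000 (TPM). Over the 12 libraries C1qb stood at 8.85 ± 2.39 TPM (mean ± SD, n = 12), C1qa at 8.61 ± 2.52 and C1qc at 8.56 ± 3.86. Csf1r followed at 5.17 ± 1.44, P2ry12 at 3.89 ± 1.60 and Cx3cr1 at 2.37 ± 1.16. Siglech at 1.86 ± 0.79, Aif1 at 1.68 ± 1.44 and Tmem119 at 1.58 ± 0.69 TPM were the lowest. Within single libraries the order was loose for some neighbours: C1qb exceeded C1qa in 7 of 12 libraries, C1qa exceeded C1qc in 6, Siglech exceeded Aif1 in 7 and Aif1 exceeded Tmem119 in 6. It was held more often by others, since C1qc exceeded Csf1r in 11 of 12, Csf1r exceeded P2ry12 in 10, Cx3cr1 exceeded Siglech in 9 and P2ry12 exceeded Cx3cr1 in 8. The step from the C1q chains to the rest was more regular, since the lowest of the 3 chains lay above Cx3cr1 and above Tmem119 in 12 of 12 libraries and above Csf1r and above P2ry12 in 10 of 12. P2ry12 exceeded it in replicate 1 of WT and replicate 2 of 5xFAD at 1 month. There the short P2ry12-205 (619 nt, against 2101 nt for P2ry12-202) was given 11.6 and 4 counts. The highest P2ry12 level, 7.28 TPM in replicate 2 of 5xFAD at 6 months, came with 17.6 counts on P2ry12-205. The TPM of P2ry12 thus depends on how a few counts were split. Among all 16233 tested genes the 9 sat between the 11.4th percentile (Tmem119) and the 35th percentile (C1qb) of mean TPM.

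**Figure D1:**
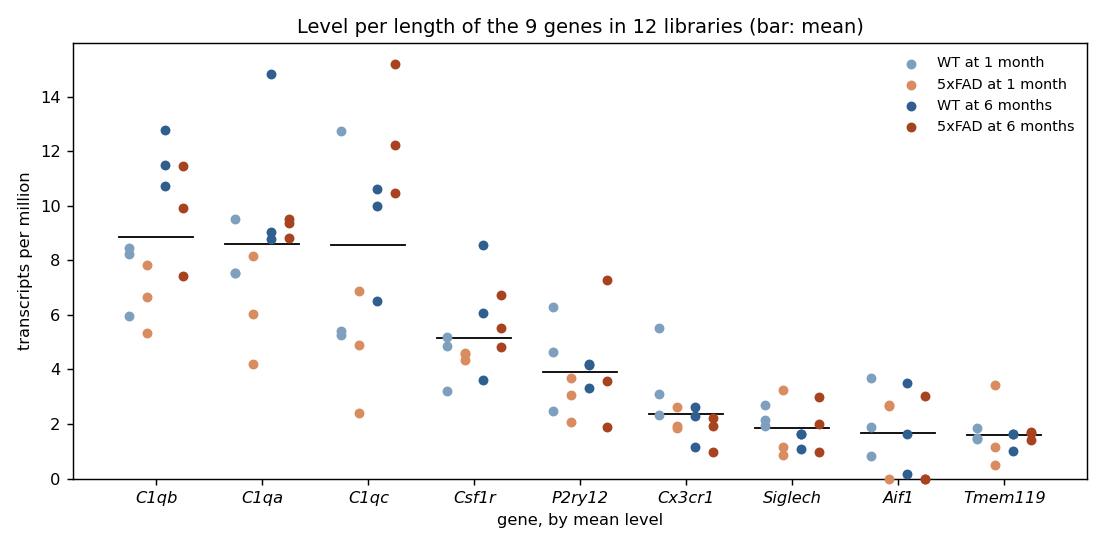
Level per transcript length (TPM, vertical axis) of each of the 9 genes in each of the 12 libraries, coloured by group, with a bar at the mean over all 12. The 3 C1q chains have means between 8.56 and 8.85, and the other 6 genes have means between 1.58 and 5.17.

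The 3 C1q chain genes lie side by side on the minus strand of chromosome 4 (GRCm38): C1qb (ENSMUSG00000036905) at chr4:136880129-136886187, C1qc (ENSMUSG00000036896) at chr4:136889804-136893065 and C1qa (ENSMUSG00000036887) at chr4:136895917-136898803. C1qb and C1qc had the highest Pearson correlation of log2 CPM among the pairs of members over the 12 libraries, without centring within groups (values below), and the bases upstream of their starts are shown for that reason. They are from RefSeq's GRCm38.p6 table, read 5′ to 3′ on the genes' strand. For C1qb these are the 250 bases before the start (chr4:136886201-136886450, minus strand). For C1qc they are the 99 bases farthest upstream in that window (chr4:136893066-136893164, minus strand), because the other 151 lie inside the longer gene model of the annotation used here. Capitals mark GAGGAA on either strand, the core of the site that PU.1, the macrophage ETS factor, is known to bind.
C1qb: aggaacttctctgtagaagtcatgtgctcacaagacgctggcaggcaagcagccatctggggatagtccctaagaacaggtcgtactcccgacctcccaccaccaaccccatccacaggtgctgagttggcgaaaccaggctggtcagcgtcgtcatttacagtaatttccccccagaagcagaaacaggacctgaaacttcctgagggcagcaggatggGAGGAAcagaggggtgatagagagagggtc
C1qc: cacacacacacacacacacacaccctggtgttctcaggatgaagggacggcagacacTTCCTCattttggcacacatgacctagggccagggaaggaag

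In C1qb the match began 30 bases upstream of the start on the gene's strand. In C1qc it lay on the opposite strand with its first base 193 bases upstream of RefSeq's start, and was part of the longer GAGGAAGT, which the C1qb match was not. GAGGAA on either strand was present in the 250 bases upstream of 23.3% of 32851 mouse promoters, GAGGAAGT in 2.44%, and the shorter GGAA in 93.4%. RefSeq promoters were matched and searched for 6 of the 9 genes (P2ry12, C1qb, C1qc, Siglech, Cx3cr1 and Aif1). For P2ry12 the bases after RefSeq's start were not found in any transcript of the annotation used here, so its start is uncertain. GAGGAA was found in 3 of these 6, namely C1qb, C1qc and Aif1, where it began 7 bases upstream of the start. The Aif1 match lies inside the longer gene model of that annotation. These matches describe letters in a window and no binding was measured.

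Of the C1q chains, C1qc had the largest difference with age in 5xFAD. The C1qc level was 3.47, 1.20 and 2.42 CPM in replicates 1 to 3 of 5xFAD at 1 month, from 40, 13 and 27 counts. It was 8.95, 6.06 and 6.96 CPM in 5xFAD at 6 months, from 105, 75 and 98 counts. In WT it was 2.86, 3.14 and 6.85 CPM at 1 month and 5.25, 3.46 and 6.05 CPM at 6 months. All 3 libraries of 5xFAD at 6 months lay above all 9 others except one of WT at 1 month, which stood at 6.85 between them, and the lowest, at 6.06, was close to the highest of WT at 6 months, at 6.05.

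C1qc rose 3.08-fold (95% interval 1.67 to 5.68) from 1 to 6 months in 5xFAD, a log2 fold change of 1.62 ± 0.43 (SE, 3 against 3 libraries) with an adjusted p of 0.00781 in edgeR's quasi-likelihood test. It was the 1 gene of the 9 that passed the threshold of 0.05 in any of the 5 comparisons. In that comparison 23.2% of all tested genes passed, and 10.8% passed as higher. The call was lost without replicate 2 of 5xFAD at 1 month, the library with 13 counts, where the log2 fold change was 1.31 with an adjusted p of 0.0518. It was also lost without the 3 libraries richest in ribosomal RNA (log2 fold change 1.56, adjusted p 0.0584), which are replicates 1 and 2 of 5xFAD at 6 months, at 1.11% and 0.446% ribosomal RNA, and replicate 2 of WT at 1 month, and this left 5xFAD at 6 months with 1 library. The share of ribosomal RNA elsewhere was between 0.028% and 0.149%, and its part in the result was not tested.

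The other chains had age differences of the same sign in 5xFAD that did not pass. C1qa, the A chain, stood at 3.56, 2.58 and 1.79 CPM in 5xFAD at 1 month and at 4.78, 4.77 and 4.33 at 6 months. C1qb, the B chain, stood at 3.04, 2.39 and 3.50 CPM in 5xFAD at 1 month and at 5.29, 3.88 and 5.89 at 6 months. For both genes every library at 6 months was above every library at 1 month. The log2 fold change was 0.80 ± 0.39 for C1qa (adjusted p 0.151, edgeR) and 0.75 ± 0.35 for C1qb (adjusted p 0.131, edgeR).

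In WT, C1qa stood at 3.53, 4.94 and 3.51 CPM at 1 month and at 4.11, 4.02 and 7.31 CPM at 6 months, with overlapping groups. C1qb stood at 4.03, 3.23 and 4.11 CPM at 1 month and at 5.46, 5.15 and 6.59 CPM at 6 months, with no overlap. The log2 fold change with age in WT was 0.59 ± 0.35 for C1qb (adjusted p 0.316, edgeR), 0.37 ± 0.38 for C1qa (adjusted p 0.624) and 0.20 ± 0.41 for C1qc (adjusted p 0.834). Whether the age difference itself differed between the genotypes was tested as an interaction. For C1qc the interaction was 1.43 ± 0.59 on the log2 scale with an adjusted p of 0.0793, and it passed (1.81, adjusted p 0.0436) without replicate 1 of 5xFAD at 1 month. For C1qa it was 0.44 ± 0.55 (adjusted p 0.610) and for C1qb 0.16 ± 0.49 (adjusted p 0.855).

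The C1q molecule is built from equal numbers of the 3 chains. Per transcript length, C1qc made up 31.8 ± 10.9% of the summed C1q level in WT and 26.1 ± 7.5% in 5xFAD at 1 month (mean ± SD, n = 3). At 6 months its share was 28.5 ± 3.9% in WT against 40.0 ± 3.6% in 5xFAD. The 3 libraries of 5xFAD at 6 months, at 44.1%, 38.2% and 37.6%, lay above 8 of the 9 others, the exception being replicate 3 of WT at 1 month at 44.3%. The C1qa share was between 24.8% and 45.5% and the C1qb share between 27.0% and 46.2% over all 12 libraries. C1q chains made up 36.3 ± 1.8% and 34.4 ± 3.3% of the summed CPM of the 9 genes in WT and 5xFAD at 1 month, and 47.5 ± 10.2% and 47.0 ± 2.4% at 6 months.

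**Figure D2:**
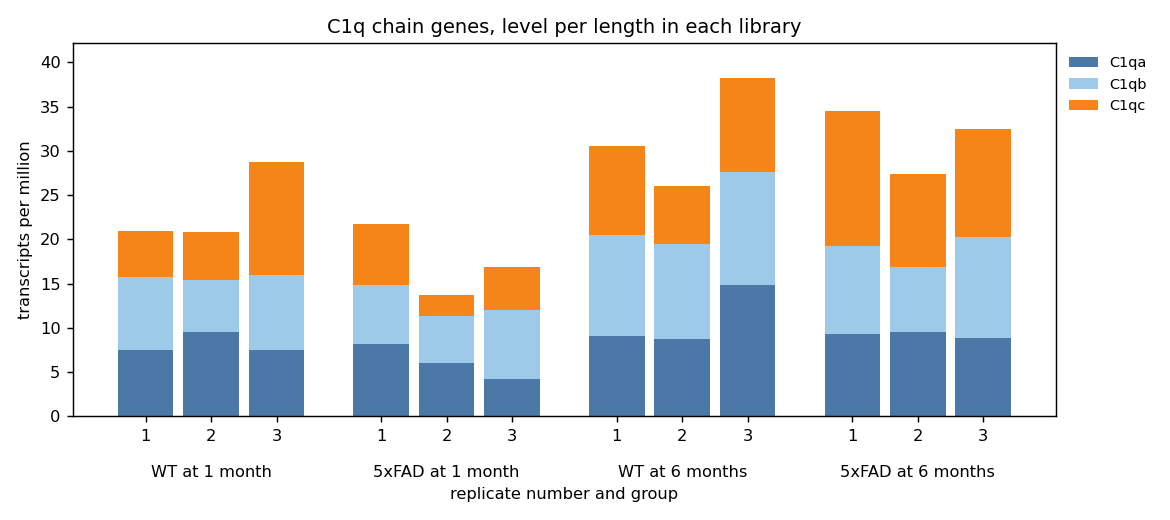
Level per transcript length (TPM, vertical axis) of C1qa, C1qb and C1qc, stacked, in each replicate of each group. The C1qc segment is 10.5 to 15.2 in 5xFAD at 6 months and 2.41 to 6.89 in 5xFAD at 1 month.

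Cx3cr1, the fractalkine receptor gene (ENSMUSG00000052336, chr9:119901616-120069879, minus strand), was highest in WT at 1 month. It stood at 3.95, 5.84 and 9.25 CPM there and at 2.43, 2.48 and 4.04 CPM in 5xFAD at 1 month. At 6 months it stood at 3.30, 4.08 and 1.92 CPM in WT and at 3.41, 1.46 and 3.05 CPM in 5xFAD. The groups at 1 month overlapped, since the highest 5xFAD library lay just above the lowest WT library. At 1 month the log2 fold change of 5xFAD against WT was -1.09 ± 0.45 (unadjusted p 0.0247, adjusted p 0.0955, edgeR), and with age in WT it was -1.03 ± 0.44 (unadjusted p 0.0298, adjusted p 0.152, edgeR). Neither passed. Both comparisons share the WT libraries at 1 month, which spread from 3.95 to 9.25. At 6 months the genotype difference was -0.23 ± 0.45 (adjusted p 0.835), and the interaction was 0.85 ± 0.64 (adjusted p 0.360).

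Csf1r, the receptor for CSF1 and IL-34 on which microglia depend for survival, lies on chromosome 18 (ENSMUSG00000024621). It stood at 8.49, 6.20 and 7.79 CPM in WT and at 7.38, 6.90 and 5.92 CPM in 5xFAD at 1 month. At 6 months it stood at 8.96, 7.08 and 6.65 CPM in WT and at 11, 8.98 and 10.1 CPM in 5xFAD. In CPM the libraries of 5xFAD at 6 months were above all 9 others, the closest being replicate 1 of WT at 6 months at 8.96. In TPM they were not: at 6 months Csf1r stood at 6.73, 4.82 and 5.51 TPM in 5xFAD and at 8.56, 6.07 and 3.63 TPM in WT. The groups overlapped, and the mean was lower in 5xFAD (5.69 ± 0.97 against 6.09 ± 2.47, SD, n = 3). TPM depends on how counts were split among transcripts. Csf1r-205 (416 nt, against 3870 nt for Csf1r-201) was given 9.86, 7.79 and 0 counts in WT at 6 months. In 5xFAD at 6 months it was given 2.48, 0 and 0. A few counts on so short a transcript weigh heavily in TPM, so the lower mean in 5xFAD is uncertain. The log2 fold change with age in 5xFAD was 0.57 ± 0.26 (unadjusted p 0.0364, adjusted p 0.115, edgeR) and against WT at 6 months 0.41 ± 0.25 (adjusted p 0.390). Exons of Csf1r overlap exons of Hmgxb3 on the opposite strand over 873 bases, and the library preparation named in the labels does not mark strand, so reads from the overlap cannot be told apart. The same holds for 78 bases of Cx3cr1 and Gm33858 and for 9 bases of P2ry12 and Med12l.

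P2ry12, the nucleotide receptor gene that guides microglial processes (ENSMUSG00000036353, chr3:59216272-59262871, minus strand), stood at 3.61, 2.61 and 4.37 CPM in WT and at 2.69, 2.30 and 1.79 CPM in 5xFAD at 1 month. At 6 months it stood at 3.84, 3.87 and 2.93 CPM in WT and at 1.96, 3.96 and 3.55 CPM in 5xFAD. Its groups overlapped in every comparison. The log2 fold change of 5xFAD against WT was -0.64 ± 0.45 at 1 month (adjusted p 0.343) and -0.17 ± 0.43 at 6 months (adjusted p 0.882, edgeR).

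Tmem119, a membrane protein gene used to tell microglia from other macrophages (ENSMUSG00000054675, chr5:113793729-113800516, minus strand), stood at 1.51, 2.07 and 1.46 CPM in WT at 1 month. Its 5xFAD libraries of that age spread from 0.46 CPM, or 5 counts, to 3.21 CPM, or 37 counts, wider than in any other group. At 6 months it stood at 1.62, 1.63 and 1.08 CPM in WT and at 1.88, 1.54 and 1.77 CPM in 5xFAD. The genotype difference was -0.08 ± 0.73 at 1 month and 0.26 ± 0.72 at 6 months on the log2 scale (adjusted p 0.957 and 0.890, edgeR).

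Siglech, a sialic acid-binding receptor gene of microglia and plasmacytoid dendritic cells (ENSMUSG00000051504, chr7:55768178-55778925, plus strand), drew 7 to 28 counts per library. It stood at 1.43, 1.35 and 1.54 CPM in WT and at 1.04, 1.10 and 0.628 CPM in 5xFAD at 1 month, so that every 5xFAD library was below every WT library in CPM. In TPM the groups overlapped, at 2.14, 1.93 and 2.7 in WT and 1.17, 3.23 and 0.864 in 5xFAD. The 3.23 came from 12 counts given to 2 short transcripts, Siglech-207 (829 nt, 8.02 counts) and Siglech-208 (833 nt, 3.98 counts). Siglech-208 also drew 4.79, 0 and 7.7 counts in the WT libraries. The overlap in TPM thus depends on how a few counts were split. The level at 6 months was 1.21, 1.43 and 1.08 CPM in WT and 1.02, 1.05 and 1.35 CPM in 5xFAD. The log2 fold change at 1 month was -0.63 ± 0.78 (adjusted p 0.623, edgeR), an error larger than the difference.

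Aif1, which encodes the actin-bundling protein IBA1 that is the usual stain for microglia (ENSMUSG00000024397, chr17:35170991-35176068, minus strand), was at the edge of detection. At 1 month it drew 12, 8 and 2 counts in the WT libraries and 11, 8 and 0 in those of 5xFAD. Later it drew 14, 9 and 1 counts in the WT libraries and 0, 0 and 17 in those of 5xFAD at 6 months. A count of 0 allows up to 3 counts, or 0.269 CPM in replicate 3 of 5xFAD at 1 month and 0.256 and 0.242 CPM in replicates 1 and 2 of 5xFAD at 6 months, counting error alone. No difference in Aif1 was detectable at this depth: the 95% interval of its fold at 6 months ran from 0.111 to 6.63.

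**Figure D3:**
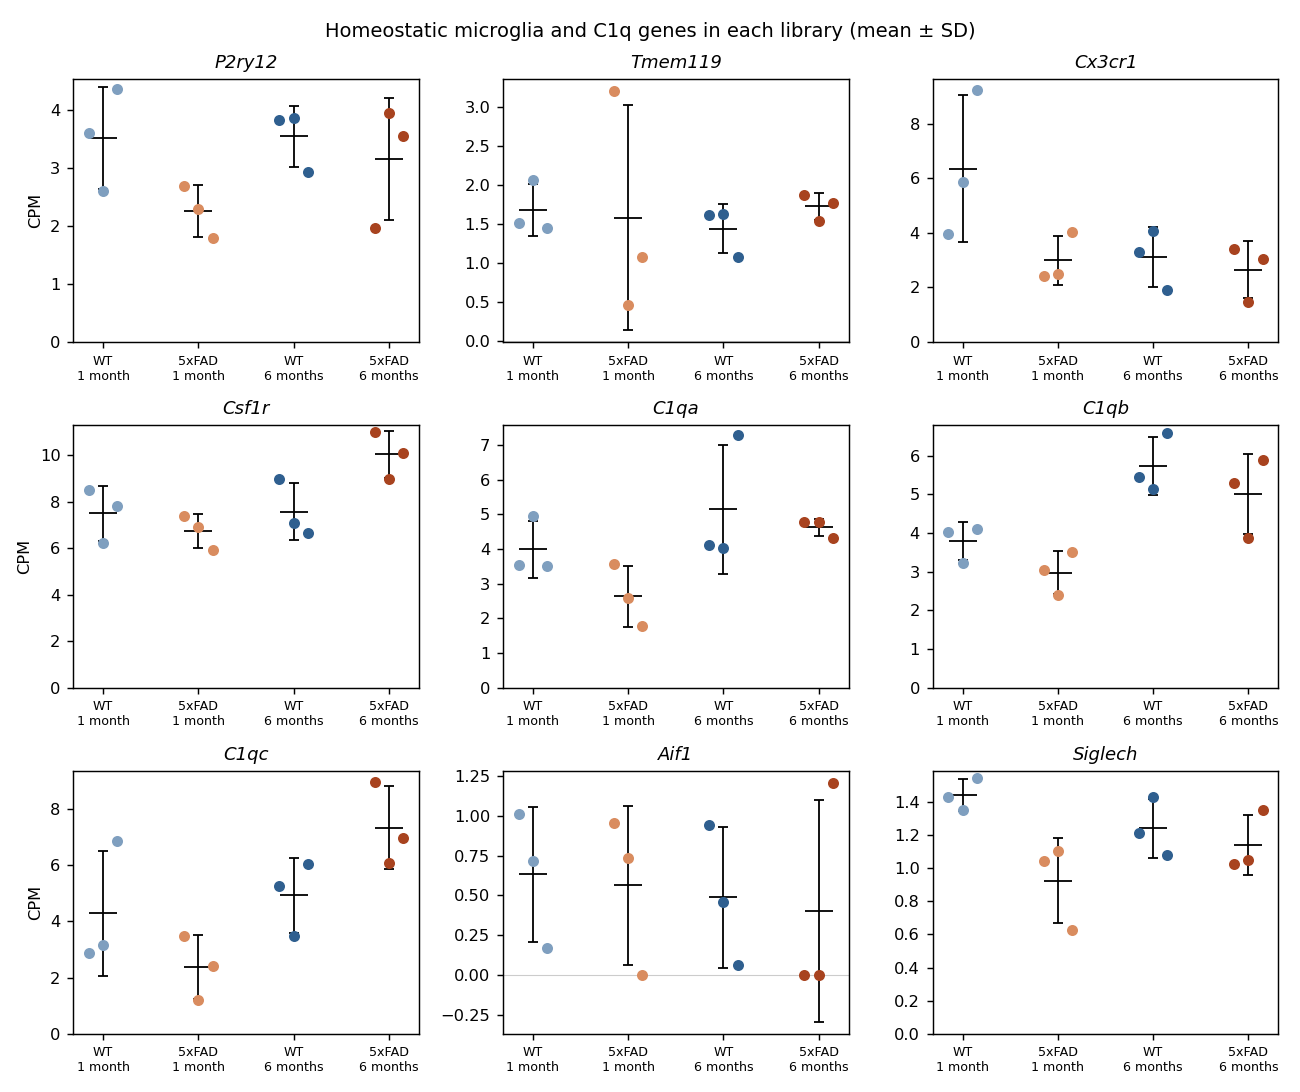
Level in CPM (vertical axis, its own scale for each gene) of the 9 genes in each library, with the mean ± SD of the 3 libraries of each group. C1qc in 5xFAD runs from 1.20 to 3.47 at 1 month and from 6.06 to 8.95 at 6 months, and Aif1 is at 0 in 3 libraries.

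At 1 month the genotypes were compared at an age before plaques are known to form in the brain of this line. In edgeR 0 of the 9 genes passed, against 19.6% of all tested genes (8.91% lower), and DESeq2 also called 0. With either tool 1 gene, Cx3cr1, had an unadjusted p below 0.05, a level that 32.5% of all genes reached in edgeR. All 9 log2 fold changes were below 0, with a median of -0.59 and a range from -1.09 to -0.08, whereas 54.0% of all tested genes were below 0 with a median of -0.04. Of the 9, only Siglech had groups that did not overlap in CPM, against 18.9% of all genes that were lower without overlap. In TPM they overlapped through replicate 2 of 5xFAD, a library with 12 counts of Siglech.

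The libraries of 5xFAD at 1 month also stood apart in the length of the transcripts they held. The count-weighted mean transcript length was 4236 ± 15.6 nt (SD, n = 3) there against 3709 ± 135 in their WT counterparts. It was 3911 ± 189 nt for WT and 3658 ± 55.1 nt for 5xFAD at the later age. With each library's trend on length and GC removed, 6 of the 9 log2 fold changes at 1 month were below 0 and 3 above, with a median of -0.21, and 0 passed. Cx3cr1 was then at -1.18 (adjusted p 0.0907), and C1qc with age in 5xFAD at 1.38 (adjusted p 0.0264). Markers of other tissues also moved at 1 month: the summed level of 13 pigment epithelium and choroid genes was 97.0 to 174 CPM in WT against 41.6 to 57.6 in 5xFAD, with 6 of 10 tested genes lower. The summed level of 10 lens genes was 0.599 to 2.79 CPM in WT against 6.86 to 75.6 in 5xFAD, with 1 of 2 tested genes higher, and Lim2 was at 0 in all 12 libraries. The sum of 13 endothelial and pericyte genes was 179 to 237 CPM in WT against 298 to 338 in 5xFAD, with 1 of 13 higher. That gene was Kdr, which alone stood at 109 ± 2.6 CPM in WT and 179 ± 6.6 in 5xFAD (SD, n = 3). Over all genes 10.7% were higher and 8.91% lower at 1 month. The part of these markers in the differences of the 9 genes was not tested.

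At 6 months, when amyloid is established in the brain of this line, 0 of the 9 genes passed in edgeR, against 6.38% of all tested genes. None had an unadjusted p below 0.05 in either edgeR or DESeq2, a level 20.9% of all genes reached in edgeR, and DESeq2 called 0. The log2 fold changes were below 0 for 6 genes (49.7% of all genes) and above 0 for 3, with a median of -0.15 (0.0028 over all genes), and ran from -0.23 (Cx3cr1) to 0.57 (C1qc). In CPM Csf1r and C1qc were higher in 5xFAD without overlap, 2 of the 9 against 11.4% of all genes, C1qc by a margin of 6.06 to 6.05 CPM. In TPM neither separated, since the lowest C1qc library of 5xFAD stood at 10.5 TPM and the highest of WT at 10.6, and the mean of Csf1r was lower in 5xFAD. For Csf1r this depends on a few counts given to the short Csf1r-205 (above). The fold of 5xFAD over WT at 6 months was 1.49 for C1qc (95% interval 0.835 to 2.65), 0.899 for C1qa (0.522 to 1.55) and 0.877 for C1qb (0.539 to 1.43). For P2ry12 it was 0.891 (0.479 to 1.66) and for Cx3cr1 0.852 (0.445 to 1.63), so changes beyond these bounds were not seen, while smaller ones could not be resolved.

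With age, 0 of the 9 genes passed in WT (edgeR, against 10.5% of all tested genes, 6.01% higher and 4.49% lower), with 1 unadjusted p below 0.05, that of Cx3cr1, in edgeR and in DESeq2, which also called 0. The median log2 fold change in WT was 0.0076 (-0.01 over all genes), 4 genes were below 0 (51.2% of all genes) and 5 above, and C1qb was the 1 gene whose groups did not overlap, being higher, against 30.7% of all genes in either direction and 15.6% as higher. In 5xFAD, besides the C1qc call, 3 of the 9 had an unadjusted p below 0.05 (C1qc, Csf1r and C1qb), 2 were below 0 (47.9% of all genes) and 7 above, with a median of 0.48 against 0.03 over all genes. In CPM the groups did not overlap for 4 of the 9, Csf1r, C1qa, C1qb and C1qc, all higher at 6 months, against 17.5% of all genes. In TPM those of C1qb overlapped, its lowest library at 6 months standing at 7.41 and its highest at 1 month at 7.83. The interaction of genotype and age passed for 0 of the 9 (25.0% of all tested genes), with 1 unadjusted p below 0.05 in edgeR and in DESeq2, which called 0. Markers of other cell types moved with age in 5xFAD as well: 7 of 13 endothelial and pericyte genes were lower, with a sum of 131 to 146 CPM at 6 months, and 3 of 10 pigment epithelium and choroid genes were higher, with a sum of 73.5 to 113 CPM. Over all genes 12.4% were lower and 10.8% higher with age in 5xFAD. The part of these markers in the C1qc result was not tested. These comparisons share libraries: the low values of 5xFAD at 1 month enter the genotype difference at 1 month, the age difference in 5xFAD and the interaction.

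**Figure D4:**
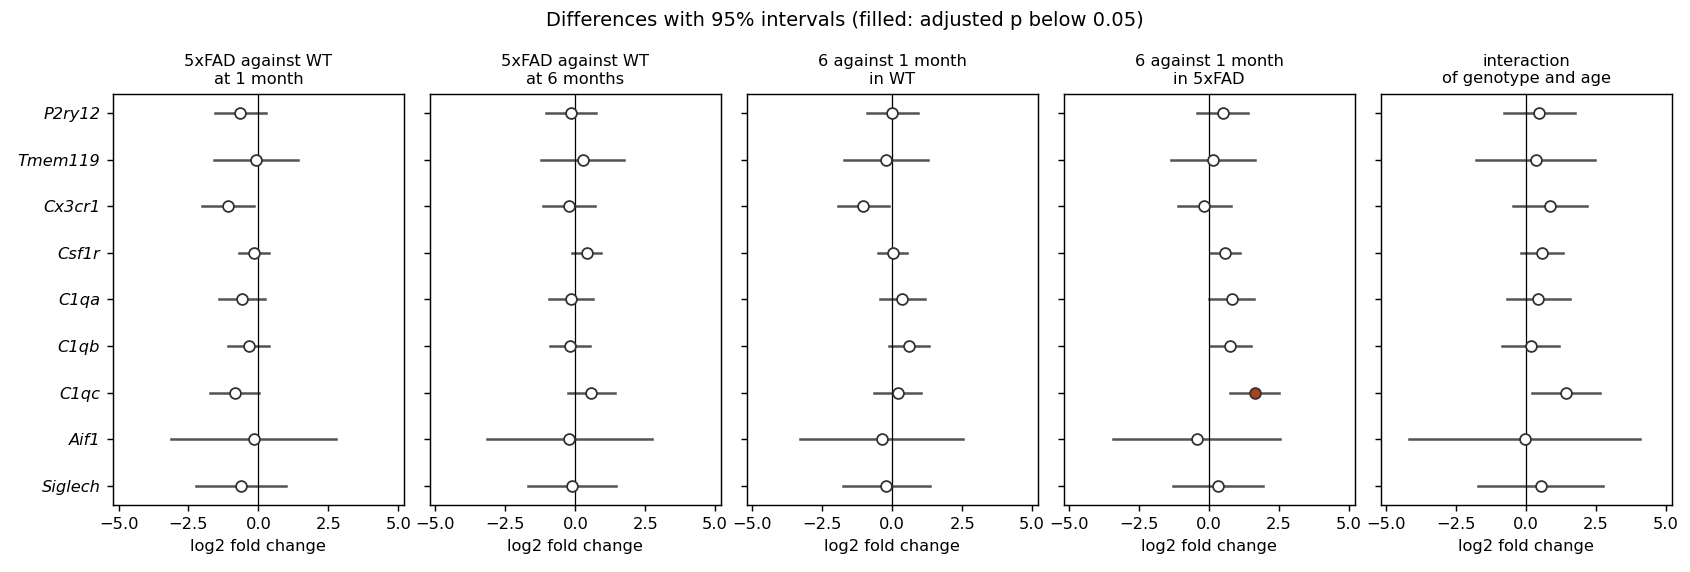
Log2 fold change (horizontal axis) of the 9 genes in the 5 comparisons, with 95% intervals from edgeR's fit of all 12 libraries, filled where the adjusted p was below 0.05. C1qc at 1.62 in the age comparison of 5xFAD is the 1 filled point, and all 9 points lie below 0 in the genotype comparison at 1 month.

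Over the 12 libraries, the 36 pairs of the 9 genes had a median Pearson r of 0.28 on log2 CPM, and 30 of 36 were above 0. None of the 36 had an adjusted p below 0.05 (two-sided permutation test). C1qb and C1qc had the highest r, 0.76 (permutation p 0.00391, adjusted p 0.0704; Spearman's rho 0.657, permutation p 0.0235, adjusted p 0.282), which was 0.60 without the 2 libraries farthest from the median of C1qb and 0.59 after centring within groups. P2ry12 and Siglech had r of 0.75 (permutation p 0.00298, adjusted p 0.0704; rho 0.664, permutation p 0.0219, adjusted p 0.282), 0.51 without the 2 farthest libraries and 0.59 after centring. By Spearman's rho Csf1r and C1qc ranked first, at 0.727 (permutation p 0.00929, adjusted p 0.282), with r of 0.65 (permutation p 0.0208, adjusted p 0.216), 0.44 without the 2 farthest libraries and 0.20 after centring. After centring within groups the highest r was that of Aif1 and Siglech, at 0.74, against 0.55 without centring (permutation p 0.0510, adjusted p 0.306; rho 0.514, permutation p 0.0918, adjusted p 0.518) and 0.26 without the 2 farthest libraries. C1qa followed C1qc with r of 0.64 over all libraries but 0.21 after centring, and Cx3cr1 followed no C1q chain over all libraries (r from -0.26 to 0.01). After centring Cx3cr1 had r of -0.56 with C1qa, 0.33 with C1qb and 0.31 with C1qc. The 12 libraries share their group structure and differ in depth.

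The study concerned transcripts and retained introns, and the deposited transcript table splits the 9 genes into 35 annotated transcripts. Counts were given to 24 of these. The 3 retained-intron transcripts (1 of Csf1r, 2 of Aif1) drew 26.4 of 4996 counts over all 12 libraries, all of them from Aif1: 11 in replicate 1 and 2 in replicate 3 of WT at 1 month, 2.48 in replicate 2 of 5xFAD at 1 month, and 7.22 and 3.69 in replicates 1 and 2 of WT at 6 months. The retained-intron transcript of Csf1r was at 0 in all 12 libraries. The 2 transcripts of Siglech annotated to nonsense-mediated decay drew 60.2 counts. Of the member transcripts 9 could be tested, and 0 passed in edgeR in any comparison, against 2.52% of 45326 tested transcripts for genotype at 1 month, 0.488% at 6 months, 0.916% with age in WT, 3.12% with age in 5xFAD and 6.05% for the interaction. C1qc-201, which took all C1qc counts in 11 of 12 libraries, had a log2 fold change of 1.59 ± 0.59 with age in 5xFAD at transcript level (adjusted p 0.194, edgeR).

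Counts of Cx3cr1 were given to different annotated transcripts from library to library. Cx3cr1-201 (3753 nt, 2 exons, chr9:120048683-120068296) took all 47, 65 and 108 counts in WT at 1 month, where Cx3cr1-202 was at 0. Cx3cr1-202 (3156 nt, 3 exons, chr9:119901616-120068283) took all 28 and 27 counts in replicates 1 and 2 of 5xFAD at 1 month, and none of the 45 in replicate 3. At 6 months Cx3cr1-202 took 75.6%, 32.9% and 43.8% of the counts in WT and 100%, 100% and 58.1% in 5xFAD. The groups at 1 month overlap through the 5xFAD library at 0, and the test of Cx3cr1-202 at 1 month had an adjusted p of 0.105 (edgeR), so no difference passed. The split is the authors' estimate, and an all-or-none split at 27 to 108 counts is uncertain. For P2ry12, P2ry12-202, a transcript that starts 42.6 kb inside the 46.6 kb gene, took 20 to 76 counts in every library, and the 3 transcripts P2ry12-201, P2ry12-203 and P2ry12-204 were at 0 in all 12. The remaining counts went to P2ry12-205, at 0 to 17.6 per library.

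**Figure D5:**
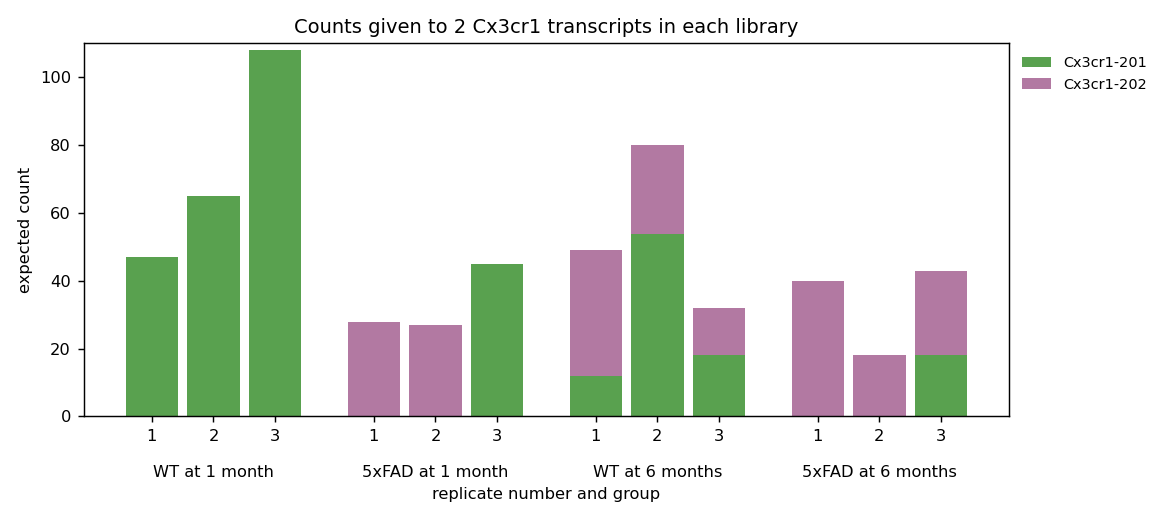
Expected counts (vertical axis) given to Cx3cr1-201 and Cx3cr1-202, stacked, in each replicate of each group. Cx3cr1-202 is at 0 in the 3 libraries of WT at 1 month and holds all counts in 4 of the 6 5xFAD libraries.

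Other genes of microglia and of the pathways around the 9 were read from lists that held none of them. Of 33 further genes of homeostatic microglia, 28 were tested. At 1 month 1 was higher and 0 lower in 5xFAD, 20 of 28 were below 0, and the median log2 fold change was -0.25. With age in 5xFAD 3 were higher and 1 lower (median 0.33), with age in WT 1 was higher and 2 lower (0.02), and at 6 months 0 passed between genotypes (edgeR; 2 at an unadjusted p below 0.05). The shares over all genes were 10.7% and 8.91% at 1 month, 10.8% and 12.4% with age in 5xFAD, and 6.01% and 4.49% with age in WT, higher and lower in turn. The 33 genes summed to 658 to 725 CPM per library, against 20.2 to 39.0 for the 9 members. Other cells of the retina may thus supply much of this RNA, and its source was not measured. Mef2c, a transcription factor gene, was higher in 5xFAD at 1 month (0.47 ± 0.10, adjusted p 0.00208) and rose with age in WT (0.51 ± 0.10, adjusted p 0.00257). Pros1, a bridging ligand for phagocytosis, rose by 1.12 ± 0.26 with age in 5xFAD (adjusted p 0.0035), and Mertk, its receptor, by 0.74 ± 0.24 (adjusted p 0.0299). Sparc, a matrix protein gene, was lower with age in WT (-0.48 ± 0.11, adjusted p 0.00569) and in 5xFAD (-0.42 ± 0.11, adjusted p 0.00686), and Gas6, the other bridging ligand of Mertk, in WT (-0.37 ± 0.10, adjusted p 0.0144). Ctss, a lysosomal protease gene of microglia, rose 0.81 ± 0.26 with age in 5xFAD (adjusted p 0.0269, edgeR).

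Around Csf1r, 14 of 18 genes of CSF1R and TYROBP signalling were tested. Only Cbl passed, the gene of a ubiquitin ligase that acts on activated receptors in many cell types: 1.39 ± 0.13 at 1 month (adjusted p 6.7e-07) and -0.66 ± 0.13 at 6 months (adjusted p 0.00268, edgeR). That was 1 of 14 genes, against 19.6% of all genes at 1 month and 6.38% at 6 months. The ligand genes did not pass in any comparison. Il34 stood at 5.69 ± 0.57 and 5.40 ± 0.48 CPM in WT and 5xFAD at 1 month, then at 5.55 ± 0.81 and 3.78 ± 0.91 at 6 months. Csf1 stood between 3.21 and 3.98 CPM on average in the 4 groups.

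Of 22 genes of fractalkine, purine and TGF-beta inputs, 21 were matched and 16 tested. Nt5e, which makes adenosine, and Tgfb2 were higher in 5xFAD at 1 month (0.38 ± 0.09, adjusted p 0.00372, and 0.43 ± 0.13, adjusted p 0.0175). No others of the 16 passed at 1 month, against 10.7% of all genes higher and 8.91% lower. With age in 5xFAD 4 were lower (12.4% of all genes) and 0 higher (10.8%). The 4 were Cx3cl1, Tgfb2, Smad2 and Smad3. Cx3cl1, the fractalkine gene and ligand of CX3CR1, stood at 72.7 ± 3.8 CPM in WT and 88.3 ± 10.6 in 5xFAD at 1 month, and at 81.7 ± 6.7 and 68.1 ± 6.9 at 6 months. It fell by 0.37 ± 0.11 on the log2 scale with age in 5xFAD (adjusted p 0.0198), and its interaction was -0.54 ± 0.16 (adjusted p 0.0152, edgeR). At 6 months between genotypes and with age in WT, 0 of 16 passed (edgeR, with 6 and 3 at an unadjusted p below 0.05), against 6.38% and 10.5% of all genes.

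Of 29 genes of the complement cascade and its regulators other than C1q, 21 were tested. With age in 5xFAD 5 were higher and 3 lower, against 10.8% and 12.4% of all genes, and with age in WT 3 were higher and 0 lower, against 6.01% and 4.49%. Between genotypes 0 were higher and 2 lower in 5xFAD at 1 month (10.7% and 8.91% of all genes), and 0 higher and 1 lower at 6 months (2.48% and 3.89%). C4b, the classical-pathway component that C1q's proteases cleave, rose with age in 5xFAD from 4.05 ± 2.51 to 8.66 ± 2.34 CPM, by 1.09 ± 0.37 on the log2 scale (adjusted p 0.0379). C3, the central component, did not pass in any comparison, at 2.50 ± 1.17 and 3.37 ± 1.79 CPM in WT and 5xFAD at 1 month and 1.19 ± 0.42 and 1.71 ± 0.97 at 6 months. Cd59a, which blocks the final pore, rose with age in WT (0.99 ± 0.13, adjusted p 6.32e-05) and in 5xFAD (0.70 ± 0.13, adjusted p 0.000586, edgeR). Vtn, a plasma and matrix protein that binds late complement, is the most abundant of the list and is also expressed by photoreceptors, and rose with age in 5xFAD (0.43 ± 0.09, adjusted p 0.000971) after being lower than WT at 1 month (-0.26 ± 0.09, adjusted p 0.0351). C1qbp, named for binding C1q but mainly a mitochondrial protein, was lower at 1 month in 5xFAD (-0.67 ± 0.18, adjusted p 0.00926). Csmd2 was the gene lower in 5xFAD at 6 months (-0.61 ± 0.17, adjusted p 0.0378). The 3 genes lower with age in 5xFAD were Csmd2 (-0.51 ± 0.18, adjusted p 0.0393), Megf10 (-0.43 ± 0.15, adjusted p 0.0446) and Lrp1 (-0.33 ± 0.12, adjusted p 0.0389, edgeR).

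Genes of disease-associated microglia, the state described around plaques, were 19 tested of 26. The whole list summed to 1411 to 1936 CPM per library, against 20.2 to 39.0 for the 9 members. Its genes are thus not read here as microglial alone: Apoe is also on the list of Müller glia and astrocytes. The cells that these transcripts came from were not measured. Of the 19, 6 rose with age in 5xFAD and 0 fell, at a median of 0.34, against 10.8% and 12.4% of all genes. With age in WT 0 were higher and 1 lower (6.01% and 4.49% of all genes), at 1 month 0 were higher and 1 lower in 5xFAD (10.7% and 8.91%), and at 6 months 1 was higher and 1 lower (2.48% and 3.89%). Fth1, a ferritin chain gene, was lower in 5xFAD at 1 month (-0.57 ± 0.10, adjusted p 0.00049), higher at 6 months (0.56 ± 0.10, adjusted p 0.0024), lower with age in WT (-0.37 ± 0.10, adjusted p 0.0228) and higher with age in 5xFAD (0.75 ± 0.11, adjusted p 2.55e-05). Gpnmb, a glycoprotein gene, rose with age in 5xFAD by 1.81 ± 0.45 (adjusted p 0.00592) and Cd9, a tetraspanin gene, by 0.59 ± 0.14 (adjusted p 0.00326, edgeR). Spp1, which encodes osteopontin, rose by 0.76 ± 0.21 (adjusted p 0.0113) and B2m, the light chain of MHC class I, by 0.62 ± 0.22 (adjusted p 0.0435). Igf1 went the other way and was the gene lower in 5xFAD at 6 months (-0.60 ± 0.18, adjusted p 0.0499, edgeR). Its interaction was -0.98 ± 0.26 (adjusted p 0.00697), and its age difference in 5xFAD, -0.46 ± 0.18, did not pass (adjusted p 0.0734, edgeR). Cst7 and Ccl4, genes that mark this state in the brain, were at 0 in all 12 libraries. Others of the list were detected at low counts and not tested. Clec7a was at 0 in 5 of 12 libraries (at most 13 counts) and Ccl6 in 6 (at most 22 counts). Ccl3 and Itgax were at 0 in 10 of 12. A count of 0 allows up to 3 counts, counting error alone, so a low level of such genes would not be seen at this depth.

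The labelled tissue and the cell type were checked against markers. Rod and cone genes summed to between 46161 and 59680 CPM per library, higher in 5xFAD than in WT at both ages without overlap. At 1 month the sum was 50518 to 53743 CPM in WT and 55633 to 59680 in 5xFAD. At 6 months it was 46161 to 49852 in WT and 55237 to 59136 in 5xFAD. Of the 13 genes 2 were higher and 2 lower at 1 month, against 10.7% and 8.91% of all genes. At 6 months 5 were higher and 0 lower, against 2.48% and 3.89%. The part of this in the differences of the 9 genes was not tested. Other macrophages could also supply C1q. Of 17 genes of perivascular and border macrophages 4 were tested and 0 passed in any comparison (edgeR, with 1 unadjusted p below 0.05, with age in WT). Their sum was 28.7 to 34.3 and 29.9 to 33.4 CPM in WT and 5xFAD at 1 month and 26.3 to 33.1 and 26.1 to 33.2 at 6 months, most of it from Maf and Lyve1. Cd163, Ccr1 and Cd209f were at 0 in all 12 libraries and Mrc1 in 11 of 12. Among 16 monocyte and granulocyte genes 5 (Camp, Chil3, Elane, Ly6g and Ngp) were at 0 in all libraries and Ccr2 in 11 of 12. Of the 4 tested, the integrin gene Itga4 was higher in 5xFAD at 1 month (1.03 ± 0.26, adjusted p 0.00655), and Itga4 and the fibronectin gene Fn1, both also of endothelium and other cells, were lower with age in 5xFAD. Among 13 lymphocyte genes 6 were at 0 in all libraries and 1, Cd8a, was tested and did not pass. Of 13 tested genes of Müller glia and astrocytes 2 were higher and 4 lower in 5xFAD at 1 month, against 10.7% and 8.91% of all genes. At 6 months 0 of them were higher and 1 lower, against 2.48% and 3.89% of all genes.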

How the data were processed

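Polyadenylated RNA of whole retina was sequenced in 12 libraries, 3 in each of 4 groups taken from the labels. The authors deposited unnormalised expected counts, in one table for genes and one for transcripts. The build GRCm38.p6 and the tools RSEM 1.3.3, STAR 2.7.1a, DESeq2 1.32.0 and Trim Galore 0.6.6 are listed per the submitters' processing notes, and the annotation is not given in the sources used here. Of 55487 genes and 142699 transcripts, 55227 and 141469 matched GENCODE M21 by identifier. After rounding, they were tested with edgeR 4.0.16 in R 4.3.3 (quasi-likelihood F test, TMM, filterByExpr by group, robust, all 12 libraries, 8 residual degrees of freedom) with Benjamini-Hochberg adjustment over all 16233 tested genes or 45326 tested transcripts, at a threshold of 0.05. Members were tested in the same fit. Log2 CPM used a prior count of 2. TPM was computed from the transcripts' expected counts and annotated lengths. DESeq2 1.42.0 was an alternative. Correlations used 100000 permutations (scipy 1.17.1). The fit was tested on simulated data. Replicates differed by more than counting noise (chi-square per degree of freedom 4.05 to 26.7), and none was taken for a duplicate. Intervals have a confidence level of 95%, and the floor is 3 counts.

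The members and gene lists were chosen with earlier results of these data known. Named were all 9 members, and from each list the genes with the smallest p for genotype or age and, for other cell types, the most abundant; not all of these are printed. Ctss, Csf1, C3, C4b, Smad3, Spp1, B2m, Mrc1 and Ccr2 and the genes listed at 0 fall outside that rule and were named after their values were seen. The same holds for Lrp1, Megf10, Clec7a, Ccl6, Ccl3, Itgax, Cd74 and Folr2.

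Replicate numbers recur in all groups but did not pair the libraries: of 18 same-numbered pairs, 0 had deviations from the group means that correlated above 0.1 (r from -0.085 to 0.062). Alternatives were other scalings, tests and filters, a replicate block, the 6 libraries compared alone, removal of length and GC trends (splines with 4 degrees of freedom), removal of the 3 libraries richest in ribosomal RNA, removal of pseudogenes, mitochondrial genes and ribosomal RNA, and leaving out each library.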

Additional observations from a re-analysis of the deposited data

How the results depend on the processing

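Depth limits these results: a member drew at most 142 counts in a library, and Aif1 at most 17. The count of member genes called was 0 for age in 5xFAD, in place of 1, without the 3 libraries richest in ribosomal RNA and without replicate 2 of 5xFAD at 1 month. With 1 library left out at a time this count ran from 0 to 1, as did that for the interaction (C1qc, without replicate 1 of 5xFAD at 1 month) and that of transcripts for the interaction (Cx3cr1-202 at -7.59, adjusted p 0.0471, without replicate 3 of 5xFAD at 1 month); the cause was not tested. Counts of calls moved under no other alternative. C1qc with age in 5xFAD ran from 1.31 to 2.01 with 1 library left out and was 1.69 (adjusted p 0.00526) with the replicate block, which changed no call.

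Log2 fold changes that turned sign were all uncalled, and the cause was not tested. With length and GC trends removed these were Tmem119 (0.12), C1qb (0.0047) and Aif1 (0.22) at 1 month, P2ry12 with age in WT (-0.14) and the C1qb interaction (-0.23). Without the libraries richest in ribosomal RNA they were Tmem119 at 1 month (0.092), C1qb (0.038), Aif1 (1.3) and Siglech (0.12) at 6 months, P2ry12 (-0.16) and Csf1r (-0.099) with age in WT, Cx3cr1 (0.047) and Aif1 (1.10) with age in 5xFAD and the Aif1 interaction (1.37). With the replicate block Aif1 was 0.41 at 6 months, 0.18 with age in 5xFAD and 0.63 in the interaction. By library size alone P2ry12 with age in WT was -0.00068.

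With 1 library left out at a time, Aif1 ran from -0.77 to 0.41 at 1 month, from -5.70 to 0.62 at 6 months, from -1.21 to 0.16 with age in WT, from -5.91 to 0.16 with age in 5xFAD and from -5.56 to 0.76 in the interaction. Tmem119 ran from -1.11 to 0.36 at 1 month, from -0.31 to 1.16 with age in 5xFAD and from -0.099 to 1.37 in the interaction. P2ry12 ran from -0.36 to 0.057 at 6 months and from -0.16 to 0.23 with age in WT, Cx3cr1 from -0.49 to 0.055 at 6 months and from -0.40 to 0.11 with age in 5xFAD. C1qa at 6 months ran from -0.33 to 0.18, the C1qb interaction from -0.022 to 0.31, the C1qc interaction from 0.86 to 1.81 and Csf1r with age in WT from -0.10 to 0.14.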

Other observations

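Profiles were compared for 13195 named genes that averaged 1 CPM or more, leaving out the members and genes with provisional Gm or Rik names. The profile most like the mean of the 9 standardised member profiles over the 12 libraries was that of Rps13-ps2, a pseudogene (Pearson r 0.93). Larp7 (0.90), Orc2 (0.89), Lenep (0.88) and Pwp1 (0.88) followed. After centring within groups the most similar profile was that of Rasgrp3 (r 0.96), followed by Tbc1d12 (0.94), Slc37a2 (0.92) and Yme1l1 (0.92). None of the 10 most similar genes by either measure is in the lists of microglia or complement genes. These correlations describe the 12 libraries, which share their group structure, and were picked as the highest of all genes compared.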
